A study of Mus musculus with 34 samples.

Results

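The genes for 9 members of the fibroblast growth factor (FGF) system were followed by RNA-seq in the mouse embryonic stem cell (mESC) line J1. They are the 5 ligands Fgf4, Fgf5, Fgf15, Fgf10 and Fgf17 and the 4 receptors Fgfr1, Fgfr2, Fgfr3 and Fgfr4. Each was found by its symbol among the 23366 gene rows of the deposited table, and 9 of 9 were found. Of these, 8 had a mean normalized count of at least 10 and were tested, and Fgfr4 was below that level.

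The study asks whether Royalactin, the major protein of honey bee royal jelly, keeps mESCs in the undifferentiated state when leukemia inhibitory factor (LIF) is withdrawn. Cells were grown in serum medium on gelatin. Of the 4 libraries used here, 2 came from cells without LIF (serum/-LIF) and 2 from cells without LIF that received purified Royalactin at 0.5 mg/ml (serum/-LIF + Royalactin). All are unmodified cells of 1 line, given as passage 40 in the sample labels and as an earlier passage in the study's text. The samples of the other condition, with LIF, were not analysed here.

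FGFs are secreted proteins that bind receptor tyrosine kinases together with heparan sulphate chains on the cell surface. The bound receptor recruits adaptor proteins and signals through Ras to the kinases MEK and ERK, which in turn raise the expression of their own inhibitors. In mESCs, autocrine Fgf4 acting through Fgfr1 and Fgfr2 drives ERK activity and readies cells to leave the naive state, and blocking MEK is one of the ways to hold mESCs in the ground state. Fgf5 is the textbook marker of the epiblast after implantation and is low in naive cells.

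The libraries held 14737796 to 17597818 reads on genes, and Rn45s, the ribosomal RNA precursor, took 9.08% to 46.6% of them. The highest share was in serum/-LIF replicate 1, which held 7878527 reads on the other genes against 10538334 to 15999458 in the other libraries. The median absolute log2 difference over tested genes was 0.57 between the serum/-LIF libraries, 0.39 between the Royalactin libraries and 0.40 between the means of the conditions. The stem cell marker Pou5f1 (Oct4) was present in every library, at 4996 to 7453 normalized counts. Of 9 stem cell markers, 5 (Sox2, Zfp42, Esrrb, Klf4 and Tfcp2l1) had an adjusted p-value under 0.05 and were higher with Royalactin, against 0.331% of tested genes. Pou5f1 and Utf1 overlapped between the conditions (adjusted p = 0.854 and 0.957, limma). The summed normalized count of all 9 was 9618 to 9864 in serum/-LIF and 19552 to 21135 with Royalactin. The summed normalized counts of 9 fibroblast markers were 238 to 244 in serum/-LIF and 123 to 192 with Royalactin, with Pdgfrb and Postn at 0 in all libraries. Dcn was at 37.4 and 31.1 in serum/-LIF and at 0 in both Royalactin libraries (unadjusted p = 0.0243, adjusted p = 0.422, limma). Fbn1 made up most of the sums, with 126 and 150 against 137 and 86.0 normalized counts. Fbn1 and Thy1, the other tested markers of this list, overlapped between the conditions (adjusted p = 0.886 and 0.998, limma). The sums of 6 trophoblast markers were 21.7 to 32.1 and 28.2 to 46.1, with Elf5 and Tpbpa at 0. Those of 5 primitive streak markers were 124 to 189 and 90.2 to 149, with Tbx6 at 0. Those of 8 primitive endoderm markers were 447 to 947 and 636 to 1105. Of these, Gata6, which was too scarce to test, was at 17.1 in Royalactin replicate 1 and at 0 in Royalactin replicate 2 and in serum/-LIF. None of the 5 tested ones passed after adjustment. Gata4 was higher in both Royalactin libraries, Dab2 was lower in both, and the others overlapped. Lama1, a large part of the sums, had 563 and 152 against 769 and 417 normalized counts (adjusted p = 0.633, limma). The 5 neural markers summed to 1252 to 1611 in serum/-LIF and 548 to 581 with Royalactin, with Neurog2 at 0. Most of that sum was Nes, which fell with Royalactin from 1490 and 1099 to 334 and 326 normalized counts (adjusted p = 0.0166, limma). The other tested neural markers had log2 fold changes above 0, Pax6 with 93.6 and 79.7 against 172 and 171 normalized counts (log2 fold change 0.98, adjusted p = 0.593, limma) and Sox1 with overlapping conditions (log2 fold change 0.68, adjusted p = 0.843, limma). The 6 primed epiblast markers summed to 12585 to 16644 in serum/-LIF and to 10070 to 10938 with Royalactin. Most of that sum was Dnmt3b, with 14267 and 10581 against 9238 and 8801 normalized counts (adjusted p = 0.735, limma). None of the 6 passed in limma after adjustment, with 1 (Pou3f1) lower at an unadjusted p under 0.05. Otx2, Lef1 and Zic2 overlapped between the conditions, and Lef1 had a log2 fold change above 0 (0.66, adjusted p = 0.738, limma). The part of these cell populations in the results on FGF genes was not tested.

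Fgf5 and Fgf4 are ligand genes that are each made from 3 exons. Their promoters are shown because Fgf5 was the member that passed the test and Fgf4 the most abundant one. RefSeq holds promoter windows of 300 bases, 250 before and 50 after the start of transcription, for 6 of the 9 members. The sequences below are the 250 bases before each start, 5′ to 3′ on the plus strand of GRCm38.p6. Capitals mark GGGCGG (the GC box bound by Sp1 family factors), CCAAT (or ATTGG on the other strand) and the TATA-like strings TATAAA and TATATA, all searched on both strands.
Fgf5, chr5:98253934-98254183: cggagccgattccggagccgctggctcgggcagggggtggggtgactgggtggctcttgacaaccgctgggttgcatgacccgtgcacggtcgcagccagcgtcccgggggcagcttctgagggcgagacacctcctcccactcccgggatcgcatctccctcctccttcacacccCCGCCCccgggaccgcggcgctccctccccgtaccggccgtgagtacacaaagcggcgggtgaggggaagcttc
Fgf4, chr7:144861136-144861385: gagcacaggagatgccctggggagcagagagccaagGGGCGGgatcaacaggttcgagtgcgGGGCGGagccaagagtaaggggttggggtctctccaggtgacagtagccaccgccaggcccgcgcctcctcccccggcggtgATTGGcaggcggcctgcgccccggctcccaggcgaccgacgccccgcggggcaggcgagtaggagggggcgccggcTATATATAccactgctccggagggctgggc
In Fgf5 the only TATA-like string lay past the annotated start, beginning at transcribed base 35, in this 30-base stretch at chr5:98254204-98254233, where capitals mark it: gagatcactggcgtTATAAAtatcccggtg

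Both windows of 300 bases were rich in GC, at 68.3% for Fgf5 and 69.7% for Fgf4, against a median of 52.7% over 32851 RefSeq promoter windows. They held 29 and 28 CpG, against a median of 7. In Fgf4, TATATA was present in overlapping copies that begin 30 bases before the start, whereas Fgf5 had none of that string. TATATA was found in 5.67% of all windows, TATAAA in 13.6%, GGGCGG in 35.7% and CCAAT in 37.4%. Neither TATATA nor TATAAA was found in the windows of Fgf10, Fgfr2, Fgfr3 (which has a pair of windows) and Fgfr4. Of the 6 members with a promoter window, Fgfr2 had the lowest GC content in its window, at 43.7%, and was the only one without a GC box there.

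Fgf5 was lower in both Royalactin libraries than in both serum/-LIF libraries. Its normalized counts (reads divided by the size factor of the library) were 379.8 and 433 in replicates 1 and 2 of serum/-LIF. With Royalactin they were 67.4 and 90.9. These rest on 284, 418, 67 and 132 reads. The libraries within each condition were close to each other, and the conditions did not overlap. The means were 406 ± 37.4 and 79.1 ± 16.6 (SD, n = 2 each), a 5.13-fold lower level with Royalactin. The log2 fold change of normalized count + 1 was -2.36 (95% interval -3.32 to -1.40, adjusted p = 0.0356, limma with Benjamini-Hochberg adjustment over 12993 genes). Fgf5 lies on chromosome 5 from 98683203 to 98706049 of mm9, and no 75-base tile of its exons, at 2 or fewer mismatches, mapped elsewhere in the genome. Its call was close to the threshold. The adjusted p-value was under 0.05 in only 6 of 15 alternative analyses. Among these were both fits with a replicate block, whose p-values do not use the spread of Fgf5 between its own replicates. It was 0.216 in limma without the variance trend. The log2 fold change was -2.45 without serum/-LIF replicate 1, -2.26 without replicate 2, -2.15 without Royalactin replicate 1 and -2.57 without Royalactin replicate 2. It lay between -2.57 and -2.15 in all 15.

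Of the 12993 genes tested, 0.493% had an adjusted p-value under 0.05, 0.162% being lower with Royalactin. Among the 8 tested members this was Fgf5 alone. At an unadjusted p under 0.05 there were 1 higher member, Fgf4, and 1 lower, Fgf5, against 4.76% and 4.58% of tested genes, and Fgf5 alone was also changed at least 2-fold, against 7.13% of tested genes. The libraries of the conditions did not overlap for 5 of the 8 tested members, against 38.6% of all tested genes, 3 of them higher with Royalactin (19.7% of tested genes) and 2 lower (18.9%). This count includes Fgf10 and Fgfr3, which reached the mean count needed for testing only through the condition in which they were high. The median log2 fold change of the 8 members was 0.02, and that of all tested genes was -0.01. In bulk RNA, fewer cells that express a gene and less of its RNA per cell cannot be told apart.

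**Figure D1:**
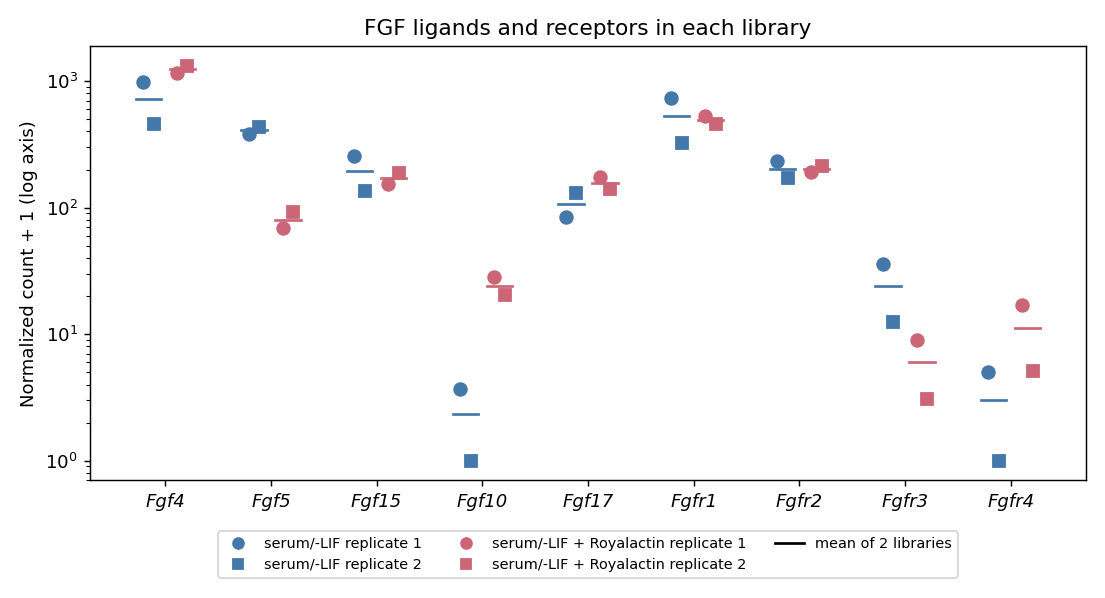
Normalized count + 1 (log axis) of the 9 members in each of the 4 libraries, with circles for replicate 1, squares for replicate 2 and short lines for the mean of the 2 libraries of a condition. Fgf5 sits at 379.8 and 433 in serum/-LIF and at 67.4 and 90.9 with Royalactin, while Fgfr1, Fgfr2 and Fgf15 overlap between conditions.

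Fgf4, the ligand that mESCs make for themselves, had 984 and 454 normalized counts in serum/-LIF and 1160 and 1322 in serum/-LIF + Royalactin. The lowest Royalactin value exceeded the highest serum/-LIF value, but the serum/-LIF libraries differed from each other more than replicate 1 differed from the Royalactin libraries. The log2 fold change was 0.89 (95% interval 0.09 to 1.68), which was not past the threshold after adjustment (unadjusted p = 0.0316, adjusted p = 0.459, limma). It was 1.44 without serum/-LIF replicate 1 and 0.33 without replicate 2. The gene spans chromosome 7 from 152047291 to 152051148 of mm9.

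The ratio of Fgf4 to Fgf5 within a library does not depend on the size factor. Per kilobase of transcript it was 2.14 and 0.867 in the serum/-LIF libraries and 14.2 and 12.0 in those with Royalactin. The lowest Royalactin ratio was thus above the highest serum/-LIF ratio. With 2 libraries against 2 an exact permutation test cannot give a two-sided p below 0.333, so no test of the ratio is given.

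Fgf15, the mouse counterpart of human FGF19 and a ligand of the gut, had 254 and 134 normalized counts in serum/-LIF and 153 and 187 with Royalactin. The serum/-LIF libraries enclosed the Royalactin libraries, and the log2 fold change was -0.12 (95% interval -1.15 to 0.90, adjusted p = 0.957, limma). In the annotation, 26.4% of its exon bases are also covered by a lincRNA, Gm17685, on the opposite strand. The strand setting of the counting is not given in the sources used here, so reads of this pair may be mixed.

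Fgf17, of the Fgf8 subfamily that acts in the primitive streak and at the boundary of midbrain and hindbrain, had 82.9 and 130.4 normalized counts in serum/-LIF and 172 and 138 with Royalactin. The conditions did not overlap, although the gap between the nearest libraries was small. Its log2 fold change was 0.56 (95% interval -0.54 to 1.66, adjusted p = 0.790, limma).

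Fgf10, a mesenchymal ligand for the epithelial form of Fgfr2 that is required for lung and limb buds, was scarce. It had 2 and 0 reads in serum/-LIF and 27 and 28 reads with Royalactin, or 2.67, 0, 27.2 and 19.3 normalized counts. In the library without reads, a floor of 3 reads corresponds to 3.11 normalized counts. From the summed reads, 55 against 2, the level with Royalactin was 19.3 times that in serum/-LIF, with an exact 95% interval of 5.08 to 163 that covers counting error only. PCR copies are not separate molecules and the spread between libraries is not in this interval. In limma the log2 fold change of 3.64 had a 95% interval of -0.50 to 7.78 and did not pass (unadjusted p = 0.0803, adjusted p = 0.611).

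The receptors Fgfr1 and Fgfr2 had nearly the same mean in both conditions. Fgfr1, the main FGF receptor of mESCs, had 732 and 323 normalized counts in serum/-LIF and 530.1 and 458 with Royalactin. Here too the serum/-LIF replicates were the extremes and the Royalactin libraries lay between them. The log2 fold change was 0.02 (95% interval -0.85 to 0.89, adjusted p = 0.993, limma). This interval is not adjusted for the number of genes tested, and it leaves room for a change in either direction. The log2 fold change was 0.61 without serum/-LIF replicate 1 and -0.57 without replicate 2.

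Fgfr2, which marks primitive endoderm and trophectoderm in the blastocyst, had 233 and 171 normalized counts in serum/-LIF and 191 and 213 with Royalactin. The ranges overlapped, with a log2 fold change of 0.02 (95% interval -0.91 to 0.94, adjusted p = 0.994, limma). The longest coding transcript of Fgfr2 lies on chromosome 7 from 137306026 to 137409759 of mm9 on the minus strand. The annotated gene extends further, and 4.03% of its exon bases are shared with Ctbp2 on the same strand.

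The other receptors were near the floor. Fgfr3, best known as a brake on growth in cartilage, had 26 and 11 reads in serum/-LIF and 8 and 3 reads with Royalactin, or 34.8, 11.4, 8.05 and 2.07 normalized counts. Both Royalactin libraries were lower, but the log2 fold change of -2.00 had a 95% interval of -5.36 to 1.36 (adjusted p = 0.748, limma). The summed reads, 11 against 37, gave a ratio of Royalactin to serum/-LIF of 0.208. Its exact 95% interval of 0.0958 to 0.417 covers counting error only. It leaves out PCR copies and the spread between libraries, so it is no test of the conditions. Fgfr4, the receptor for FGF19-type ligands in liver, had 3 and 0 reads in serum/-LIF and 16 and 6 reads with Royalactin, or 4.01, 0, 16.1 and 4.13 normalized counts. The highest serum/-LIF library and the lowest Royalactin library were nearly equal, and the gene was not tested because its mean was 6.06.

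**Figure D2:**
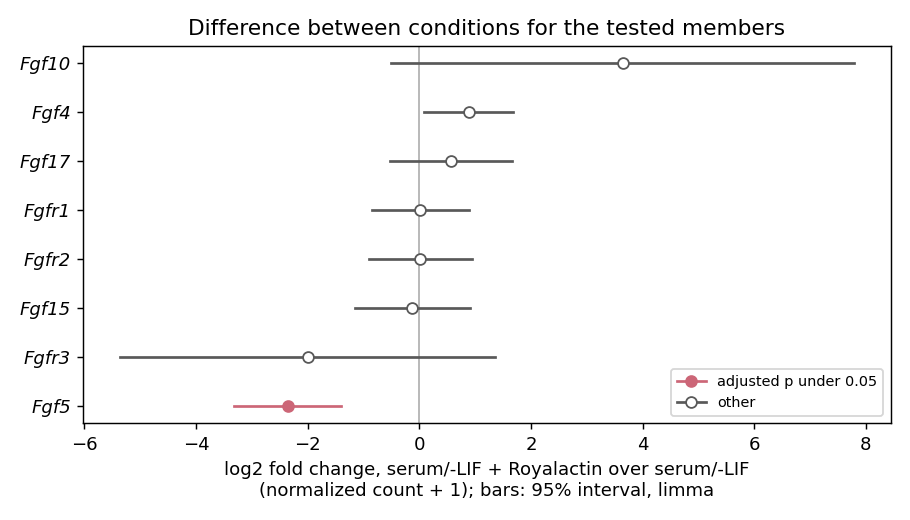
log2 fold change (normalized count + 1) of serum/-LIF + Royalactin over serum/-LIF for the 8 tested members, with the 95% interval from limma as bars and filled circles for an adjusted p-value under 0.05. The interval of Fgf5, -3.32 to -1.40, lies below 0, that of Fgf4 runs from 0.09 to 1.68, and Fgf10 and Fgfr3 have the widest intervals.

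Levels of different genes were compared per kilobase of the longest coding transcript. In serum/-LIF the order was Fgf4 at 237 ± 124 normalized counts per kilobase (SD, n = 2), Fgf5 at 162 ± 14.9, Fgf15 at 107 ± 47.1, Fgfr1 at 106 ± 57.9, Fgf17 at 63.2 ± 19.9 and Fgfr2 at 47.8 ± 10.4. Among these 6, neighbours overlapped in their libraries except Fgf5 and Fgf15. Fgfr3 followed at 5.47 ± 3.92, apart from its neighbours on both sides, and Fgfr4 and Fgf10 were lowest at 0.603 ± 0.853 and 0.325 ± 0.460. With Royalactin, Fgf4 stood apart at 409 ± 37.8 normalized counts per kilobase (SD, n = 2). Fgfr1 at 99.0 ± 10.3, Fgf15 at 93.8 ± 13.2 and Fgf17 at 92.0 ± 14.1 overlapped with each other, and Fgfr2 came next at 47.9 ± 3.73. Fgf5, at rank 2 in serum/-LIF, was at rank 6 with Royalactin, at 31.6 ± 6.64, below Fgfr2 in every Royalactin library. Fgf10 at 5.64 ± 1.36, Fgfr4 at 3.04 ± 2.54 and Fgfr3, with 0.489 and 1.91 in its libraries, formed the low end, where neighbours overlapped.

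Of 18 secreted FGF ligand genes, 6 had no read in any of the 4 libraries. These were Fgf6, Fgf7, Fgf16, Fgf20, Fgf21 and Fgf22, and 3 reads correspond to 2.07 to 4.01 normalized counts depending on the library. As shares of the summed ligand level per kilobase, Fgf4 took 39.5% and 27.7% in serum/-LIF and 59.0% and 61.6% with Royalactin. Fgf5 took 18.5% and 32.0% in serum/-LIF and 4.15% and 5.13% with Royalactin. For both genes the conditions did not overlap. The share of Fgf15 was 13.0% to 17.1% over all libraries. Fgf17 took 5.97% and 14.3% in serum/-LIF and 15.7% and 11.6% with Royalactin, which overlap. The summed ligand level was 823 and 541 normalized counts per kilobase in serum/-LIF and 649 and 708 with Royalactin, so that the Royalactin libraries lay within the range of serum/-LIF. Because shares add up to the whole, a fall of 1 ligand raises the share of the others.

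Among the receptors, Fgfr1 took 60.0% to 69.4% of the summed level per kilobase and Fgfr2 26.1% to 37.5% over the 4 libraries. The ratio of Fgfr1 to Fgfr2 per kilobase was 2.66 and 1.60 in serum/-LIF and 2.35 and 1.82 with Royalactin, with the Royalactin libraries again inside the serum/-LIF range. Fgfr3 held between 0.340% and 3.90%, with both Royalactin libraries below both serum/-LIF libraries. Fgfr4 held at most 3.06%.

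**Figure D3:**
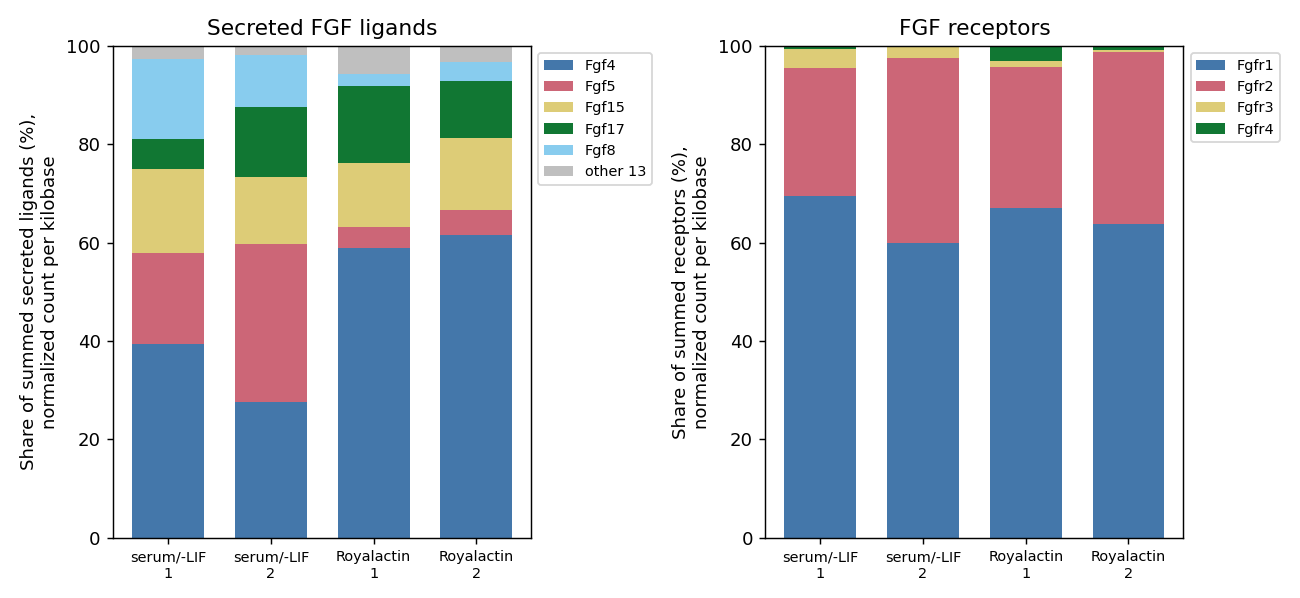
Share of each gene in the summed normalized count per kilobase (%) of the 18 secreted FGF ligands (left) and the 4 receptors (right), 1 bar per library with Royalactin standing for serum/-LIF + Royalactin. Fgf4 fills 27.7% to 39.5% of the ligand bars in serum/-LIF and 59.0% to 61.6% with Royalactin, while Fgf5 shrinks from 18.5% and 32.0% to 4.15% and 5.13% and the receptor bars look alike.

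The rest of the pathway was followed in 6 lists of 84 measured genes, of which 70 were tested. None passed an adjusted p-value of 0.05 in limma, and at an unadjusted p under 0.05 there were 3 higher and 8 lower genes, against 9.34% of all tested genes in either direction. Genes with the largest rise or fall of a list are named.

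Among the other secreted ligands, 3 of 13 were abundant enough to test. Fgf8, the relative of Fgf17 that is needed for gastrulation, had 156 and 66.2 normalized counts in serum/-LIF and 19.1 and 33.0 with Royalactin. The conditions did not overlap, with a log2 fold change of -1.98 (unadjusted p = 0.0211, adjusted p = 0.404, limma). The ratio of Fgf17 to Fgf8 per kilobase was 0.367 and 1.36 in serum/-LIF and 6.23 and 2.90 with Royalactin. Fgf1, a ligand for all FGF receptors, had 12 and 13 reads in serum/-LIF and 92 and 32 with Royalactin, with the Royalactin libraries apart from each other (log2 fold change 1.56, adjusted p = 0.691, limma).

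The intracellular FGFs are not secreted and act at sodium channels and microtubules. Fgf13 had 129.7 and 129.4 normalized counts in serum/-LIF and 12.1 and 35.1 with Royalactin, a log2 fold change of -2.59 (unadjusted p = 0.00416, adjusted p = 0.214, limma). Fgf14 was the other tested gene of the list, and its conditions overlapped.

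Of 8 co-receptors and FGF-binding proteins, 7 were tested and all 7 had log2 fold changes below 0, from -2.31 to -0.13. Their median was -0.80, against -0.01 for all tested genes. Both Royalactin libraries were below both serum/-LIF libraries for 4 of the 7, against 18.9% of all tested genes. These 4 include Flrt1, with a mean of 24.5 in serum/-LIF and 8.07 with Royalactin. Flrt1 reached the mean count needed for testing only through serum/-LIF. Some of the 7 were scarce, with as few as 2 reads in a library. None of the 7 passed the adjusted threshold, and 1 had an unadjusted p under 0.05. This was Fgfbp1, a secreted carrier that releases FGFs from the matrix, with 169 and 539 normalized counts in serum/-LIF and 38.2 and 94.3 with Royalactin (log2 fold change -2.31, unadjusted p = 0.00266, adjusted p = 0.178, limma). The serum/-LIF libraries differed several-fold, in the opposite order to Fgf4 and Fgfr1.

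Heparan sulphate chains and their core proteins hold FGFs at the receptor. Of the 25 tested genes of this list, 12 had log2 fold changes above 0 and 13 below, with a median of -0.03. The largest fall was that of Gpc6, a glypican, from 122 and 146 to 43.3 and 24.8 normalized counts (log2 fold change -1.99, adjusted p = 0.295, limma). The largest rise was that of Hs6st1, a sulphotransferase, at 0.91 (adjusted p = 0.665, limma), and its conditions overlapped.

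The adaptors and the kinases from Ras to ERK had a median log2 fold change of 0.16 over 19 genes, 12 above 0 and 7 below. Gab1, the docking adaptor next to Frs2 and Grb2, had 1698 and 1095 normalized counts in serum/-LIF and 2674 and 2093 with Royalactin (log2 fold change 0.79, adjusted p = 0.429, limma).

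Of 14 targets and feedback inhibitors of ERK signalling, 7 had log2 fold changes above 0 and 7 below, with a median below 0.01 in size. Dusp6, the phosphatase that inactivates ERK and is induced by FGF signalling, had 2524 and 2611 normalized counts in serum/-LIF and 1176 and 1141 with Royalactin. The replicates were close and the conditions well apart, a 2.22-fold lower mean (log2 fold change -1.15, unadjusted p = 0.00132, adjusted p = 0.132, limma). Spry4, another inhibitor of the same route, had 339.7 and 23.8 normalized counts in serum/-LIF and 857 and 542 with Royalactin (log2 fold change 2.89, unadjusted p = 0.00401, adjusted p = 0.210, limma). The serum/-LIF libraries of Spry4 differed far more than those of Dusp6.

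**Figure D4:**
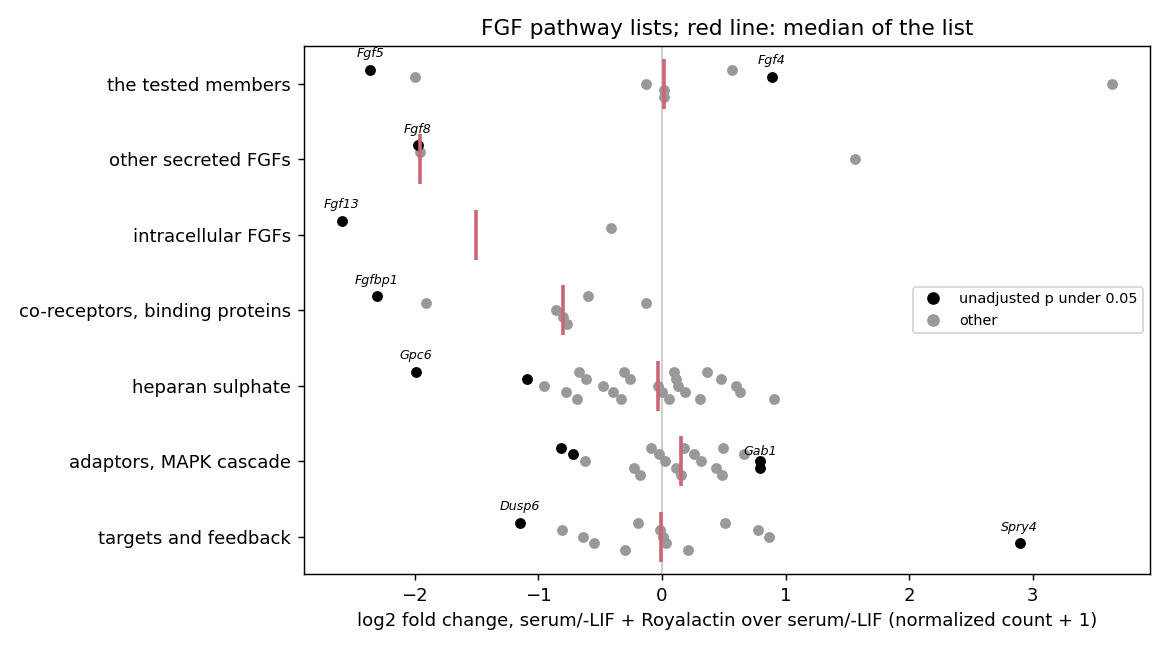
log2 fold change (normalized count + 1) of serum/-LIF + Royalactin over serum/-LIF for the tested members and the tested genes of the 6 pathway lists, 1 point per gene, black where the unadjusted p was under 0.05, with a red line at the median of each list. The medians are -1.95 for the other secreted FGFs (3 genes), -1.50 for the intracellular FGFs (2 genes) and -0.80 for the co-receptors and binding proteins (7 genes), and they lie between -0.03 and 0.16 for the other 3 lists. The median of -1.95 is the value of Fgf3, whose mean was 19.1 in serum/-LIF and 4.26 with Royalactin. Fgf3 reached the mean count needed for testing only through serum/-LIF.

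The genes whose values over the 4 libraries were most like those of Fgf5 were Cxcl10, Fndc1 and Tpm1, at Euclidean distances of 0.19, 0.22 and 0.27 between mean-centred log2 values. Because they were picked for this likeness, their lower values with Royalactin follow from the choice and are given with no test. Tpm1, the actin-binding tropomyosin, had 5678 and 8246 normalized counts in serum/-LIF and 1069 and 1461 with Royalactin. Cxcl10, a chemokine, and Fndc1 were much scarcer, at 50.8 and 50.7 and at 30.8 and 37.3 normalized counts in serum/-LIF.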

How the data were processed

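Alignment to mm9 by the authors used Tophat with 2 mismatches allowed. The authors took counts from HTSeq-count and divided them by 1 DESeq size factor per library. The deposited values are these normalized counts, a signal proportional to reads. Strand setting and counting annotation are not given in the sources used here. All 23366 values of a library (100%) were multiples of 1 step to within 0.01, and reads are values divided by that step. In Royalactin replicate 1 the step is so near 1 that whole reads could not be told from whole values by the automatic check, and no count model was fitted across genes. The read numbers, and the exact intervals on read ratios of scarce members, rest on these steps. Whether replicates were separate cultures is not stated per sample, so p-values measure the spread between these samples. In the main fit the variance of each gene was also drawn towards the trend over all tested genes, with 11.5 prior degrees of freedom. Its p-values thus rest only in part on the spread of a gene between its own replicates. No column was left unmapped, and ATAC-seq was not analysed here.

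log2(normalized count + 1) was tested for 12993 genes with a mean of at least 10 by limma 3.58.1 in R 4.3.3 (trended variance, two-sided, Benjamini-Hochberg over all genes tested). The step was tested on simulated data. Members and gene lists were chosen with earlier results of these data known. Named genes are all members, and in each pathway list genes with an adjusted p-value under 0.05 and the largest rise and fall, of which 1 is not reported here. For a member past the threshold the 3 most similar genes are named. In marker lists the genes at 0 in all libraries or past the adjusted threshold are named, and the other marker genes named were chosen after their values were seen. Positions and lengths are from GENCODE vM1, of the authors' build, and exon tiles were mapped with minimap2 2.31-r1302. Promoters are from RefSeq (GRCm38.p6). Alternatives were other pseudocounts (0.1 and 5), filters, scalings, a fit without the trend, a replicate block, a lowess correction for GC content and length (span 0.3), and each library left out.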

Additional observations from a re-analysis of the deposited data

How the results depend on the processing

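The number of members with an adjusted p-value under 0.05 was 1, Fgf5. It was 0 with a pseudocount of 0.1 (adjusted p of Fgf5 0.0720), over all genes with a value above 0 (0.0943), with upper-quartile scaling (0.0516), with scaling to the total without Rn45s (0.0533), without the variance trend (0.216) and with each library left out (0 to 0, 0.107 to 0.662). It was 2 with the GC and length correction and the replicate block together, which added Fgf4 (adjusted p = 0.00618, limma). Members past an unadjusted p of 0.05 and 2-fold numbered 1, 2 over all genes with a value above 0 and without the trend, and 1 to 3 with each library left out. The pathway genes called were 0, 5 with the replicate block (Dusp6, Fgf13, Fgfbp1, Sdc1 and Spry4), 2 with the GC and length correction, 11 with both, and 0 to 0 with each library left out. All genes called were 64, 32 with a pseudocount of 0.1, 34 over all genes above 0, 99 with the minimum mean raised to 50, 0 without the trend, 391 with the replicate block, 254 with the GC and length correction, 798 with both, and 0 to 60 with each library left out. The cause was not tested. The sign of Fgfr1 and Fgfr2 turned with the GC and length correction, to log2 fold changes of -0.088 and -0.083 with and without the block. With each library left out the log2 fold change ranged from -0.57 to 0.61 for Fgfr1, -0.20 to 0.24 for Fgfr2 and -0.59 to 0.34 for Fgf15. The other members kept their sign in every alternative that gave a value. The labels do not say whether same-numbered libraries were processed together. Rn45s took 46.6% and 38.4% of reads in replicate 1 of serum/-LIF and of Royalactin, and 21.6% and 9.08% in replicate 2. The deviations of same-numbered libraries from the group means correlated at 0.0851 over genes. Fgf5 kept its call with the block (adjusted p = 0.000125, limma). In both fits with the block the prior degrees of freedom were infinite, so the variance of each gene came from the trend alone. Those p-values therefore do not use the spread of Fgf5 between its own replicates.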

Other observations

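Fgf4 lies in a cluster of FGF genes on chromosome 7 of mm9, with Fgf3 ending 17.0 kb before it and Fgf15 beginning 31.3 kb after it. Fgf3 had 22.7 and 15.5 normalized counts in serum/-LIF and 3.02 and 5.51 with Royalactin (log2 fold change -1.95, adjusted p = 0.754, limma), and Fgf15 overlapped between the conditions. Of the other genes within 250 kb, which were chosen after the value of Fgf4 was seen, Ccnd1 (cyclin D1) had 1593 and 1199 against 1414 and 1485 normalized counts. Oraov1 had 37.4 and 14.5 in serum/-LIF and 71.4 and 83.3 with Royalactin (log2 fold change 1.68, unadjusted p = 0.0557, adjusted p = 0.551, limma), and Ano1 overlapped.

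Of the 4 gene symbols placed within 250 kb of Fgf5 on chromosome 5, Antxr2 was the one tested, and its conditions overlapped (log2 fold change 0.84, adjusted p = 0.910, limma). The symbols 1700007G11Rik and 4930428O21Rik were placed on the same stretch, 98758373 to 99230929 of mm9. Prdm8 had 8.02 normalized counts in serum/-LIF replicate 1 and 0 in the other libraries, 1700007G11Rik had a mean of 6.33 over the 4 libraries, and 4930428O21Rik was at 0 in all of them. These genes too were chosen after the value of Fgf5 was seen.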
